A study of Mus musculus and Sus scrofa with 30 samples.

Results

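What magnolol added on top of dicoumarol was measured in porcine dedifferentiated fat (DFAT) cells. Such cells arise when mature fat cells, here of subcutaneous fat, lose their lipid and start to divide again like fibroblasts. Cells given both compounds (the combination, 3 libraries) were set against 3 libraries of cells given dicoumarol alone, 6 of the 30 libraries of the series. The libraries were taken by their labels, and no measured value chose them. All 6 came from day 5 of adipogenic induction in a medium of low serum (2%). It held the glucocorticoid dexamethasone at 0.5 µM and IBMX, a blocker of cyclic nucleotide phosphodiesterases, at 12.5 µM, and was supplemented with biotin (20 µM) and pantothenate (10 µM). By their labels the 2 groups therefore share the inducers as well as dicoumarol, and differ by magnolol. Whether both received the same dose of dicoumarol is not stated. Further DFAT groups of 3 libraries in the same medium received the DMSO vehicle, magnolol alone or rosiglitazone, a synthetic agonist of PPARγ. Mouse 3T3-L1 cells, an embryonic fibroblast line that can become adipocytes, received the same 5 treatments and were also collected on day 5. Their induction medium held more serum (10%), with 75 nM dexamethasone, 37.5 µM IBMX and insulin at 0.75 µg/mL. No source used here gives the doses of magnolol, dicoumarol or rosiglitazone. Nothing in the labels says that the 3 libraries of a group came from separate cultures or animals, so the p-values measure only the spread between these libraries, which may be technical.

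As background, fat cell formation is driven by the nuclear receptor PPARγ together with C/EBPα, which switch on the genes for taking up fatty acids, storing them as triglyceride in lipid droplets, releasing them again, and secreting hormones such as adiponectin. Magnolol, a lignan of magnolia bark, has been described as a ligand of PPARγ and of its partner RXRα. Dicoumarol is a coumarin anticoagulant that blocks vitamin K recycling and also inhibits the quinone reductase NQO1.

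Adding magnolol to dicoumarol raised a broad set of genes of the storing fat cell. Among genes with a mean of at least 100 the largest rises were in PCK1, RBP5, ADIPOQ, SGK2 and DGAT2, and some genes for smooth muscle contractile proteins and some collagens were also higher. Fewer genes fell in the main fit, among them ZBP1, DHX58, C3, GATM and DCN, and their changes were smaller. The calls of ZBP1, DHX58 and C3 were each lost in 4 of 6 fits that left out 1 library. The balance of rises and falls depended on the scaling, as given below. Of 14819 genes tested, 348 (2.35%) passed an adjusted p of 0.05 (limma on log2(value + 1), Benjamini-Hochberg adjusted over all genes tested). They comprised 297 genes higher in the combination (2.00% of those tested) and 51 lower (0.344%). In all 297 and all 51 the 3 libraries of one group lay wholly on one side of the other 3, while 12.6% of all genes tested were higher without overlap and 11.8% lower without overlap. The median rise was 1.47-fold and the median fall 1.30-fold, and 72 genes rose at least 2-fold (0.486%) against 1 that fell at least 2-fold (0.00675%). Of the called genes, 286 of those higher and 50 of those lower are listed as protein coding.

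**Figure D1:**
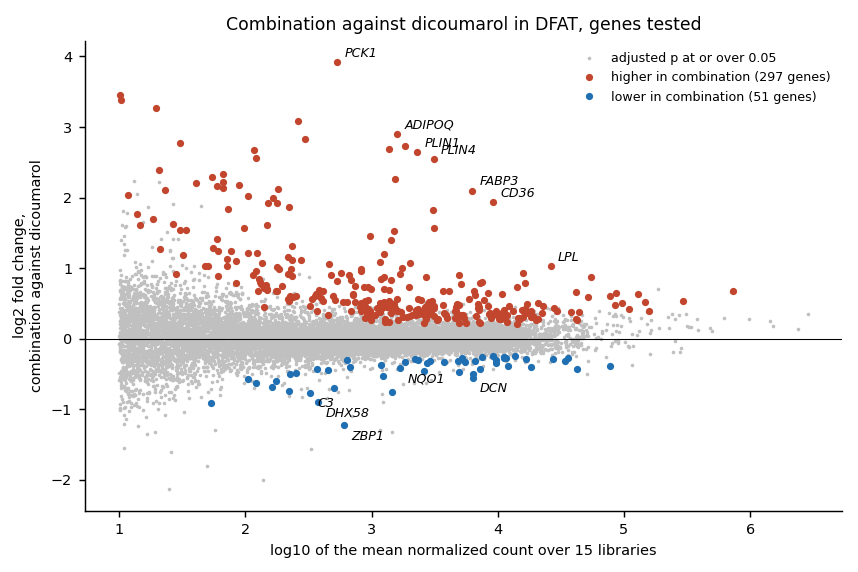
Log2 fold change of each tested gene, combination against dicoumarol, plotted over the log10 of its mean normalized count in the 15 DFAT libraries; each point is 1 gene. The 297 genes higher (red) reach a log2 fold change of 3.92 in PCK1, and the 51 genes lower (blue) reach −1.23 in ZBP1.

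The estimated depth was 54.4 to 65.4 M reads in the combination libraries and 61.2 to 70.5 M in the dicoumarol libraries. Mitochondrial genes took 12.2% to 15.1% of the normalized counts in the combination and 10.7% to 11.7% with dicoumarol alone, so the groups did not overlap, with combination replicate 3 highest. The 10 most abundant genes took 21.5% to 24.9% and 19.7% to 20.5%. The part of these differences in the results below was not tested. Scaling bears on the balance of rises and falls: with limma-voom, which rescales to the column totals, 159 genes were higher and 165 lower, 49.1% higher against 85.3% in the main fit, and the median of all genes tested moved from −0.01 to −0.12. All 348 called genes kept their direction there. Besides the genes for which it is said below, ABHD5, ANGPTL4, SFRP5, GK, VLDLR, PEX11A, NT5E, ACTA2, NOTCH3, PRELP, MMP19, WNT5B, EPHX1, INHBA and CCND1 were not called with that scaling. Leaving out 1 library gave 175 to 268 calls: 196 without combination replicate 3, 175 without dicoumarol replicate 1, 214 without dicoumarol replicate 2 and 211 without dicoumarol replicate 3.

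The identity of the cells was checked first. Of 18 tested genes of a mature adipocyte list, 14 were higher in the combination and none lower, with a median log2 fold change of 1.20 against −0.01 over all genes tested. Between 13 and 14 were higher in each of the other fits and scalings tried. The list's median in each library, taken relative to each gene's mean over the 15 DFAT libraries, was 0.91, 0.81 and 0.87 in the combination and −0.54, −0.67 and −0.63 with dicoumarol. It was −1.25 in vehicle replicates 1 and 2, with replicate 3 also below every dicoumarol library, and 1.08, 0.92 and 0.91 with rosiglitazone. Every combination library thus lay above every dicoumarol library, and by this median the combination and rosiglitazone libraries were near each other. The summed counts of the list did not overlap, at 126400 to 146900 in the combination and 161900 to 185100 with rosiglitazone. Single genes went either way: FABP4 averaged 3736.1 in the combination and 8092.1 with rosiglitazone, and PLIN4 6388.2 and 5499.8. In bulk RNA, more fat cells and more RNA of these genes per cell cannot be told apart. Of 16 preadipocyte and stromal markers 1 was called, NT5E (log2 fold change 0.45), whose call was lost without combination replicate 2 or 3 or any 1 dicoumarol library (adjusted p up to 0.202). VIM, the intermediate filament of mesenchymal cells, read 252240.0, 248243 and 226830.0 against 278715, 271268 and 276356 (log2 fold change −0.19 ± 0.088 (SE), adjusted p = 0.392). Of 9 endothelial markers 2 could be tested, KDR was at 0 in all 15 libraries and VWF in all 6 compared. The 2 tested were PECAM1 (mean 182.7 in the combination and 166.7 with dicoumarol) and ERG (331.5 and 274.2), neither called. Of the leukocyte and macrophage markers 3 could be tested and none was called: CD14 (mean 790.4 in the combination and 860.6 with dicoumarol), CD68 (78.32 and 68.74) and CD79A (38.01 and 28.64). CD3E was at 0 in all 15 libraries, and PTPRC did not pass a value of 0.981 in any. The muscle regulators MYF5 and PAX7 were at 0 in all 6 libraries, and none of 3 tested skeletal muscle markers or 2 tested Schwann cell and neural markers was called. The 3 muscle markers were ACTA1 (mean 141.1 in the combination and 107 with dicoumarol), DES (138.9 and 81.06) and TNNT1 (20.11 and 10.31). Of 6 pericyte markers CSPG4 and NOTCH3 were called, and both are described below.

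**Figure D2:**
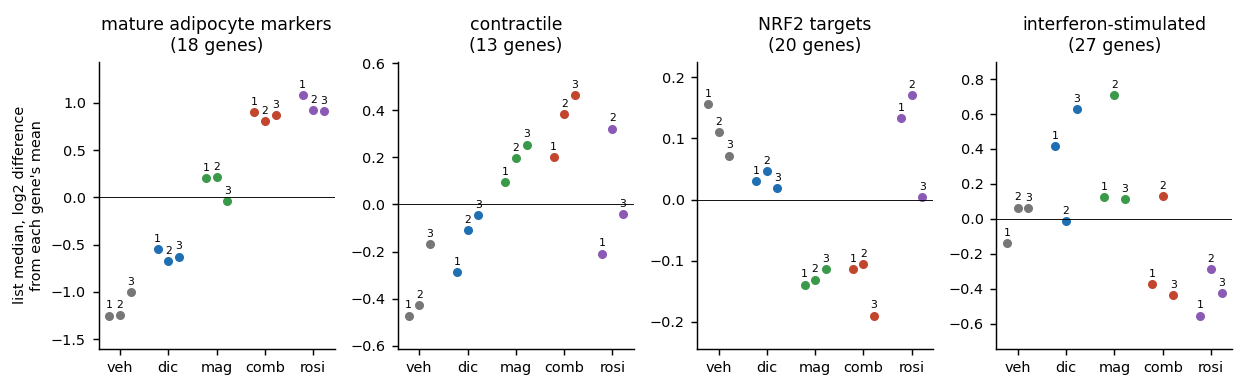
Median over a gene list's tested members of the log2 difference from each gene's mean over the 15 DFAT libraries; each point is 1 library, numbered by its replicate, in the groups vehicle (veh), dicoumarol (dic), magnolol (mag), combination (comb) and rosiglitazone (rosi). Combination libraries lie above all dicoumarol libraries for mature adipocyte markers and contractile genes and below all of them for NRF2 targets, while in the interferon-stimulated genes combination replicate 2 lies above dicoumarol replicate 2.

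Lipid droplet proteins coat the stored fat and govern access to it. Of 13 tested genes of the list 6 were higher and none lower (median log2 fold change 0.21). PLIN1, the main droplet coat protein of fat cells and the gate to lipolysis, read 3969, 3829 and 3909.9 normalized counts in the combination libraries 1 to 3 and 736, 597 and 549.6 in the dicoumarol libraries. The groups were far apart and the combination libraries nearly equal (6.26-fold, log2 fold change 2.65 ± 0.10 (SE), adjusted p = 5.40e-11). PLIN4, a further coat protein, stood at 6619.8, 6297 and 6248 against 1198, 1061 and 1028 (log2 fold change 2.54 ± 0.10 (SE), adjusted p = 5.80e-11). CIDEC, which drives the fusion of droplets, stood at 1699.8, 1239.9 and 1259 against 741, 522 and 556 (log2 fold change 1.21 ± 0.14 (SE), adjusted p = 4.60e-05). Its groups did not overlap. PLIN2, a coat protein found in most cells that store fat, stood at 8766, 8021 and 8027 against 5036, 4793 and 4549 (log2 fold change 0.79 ± 0.067 (SE), adjusted p = 1.27e-06). The remaining 2 calls were in low genes. PLIN5 read 19.6, 14.6 and 14.0 against 0.975, 0.856 and 0.00, with the dicoumarol libraries at or near 0. Its mean over the 15 libraries, 10.2, was just above the minimum of 10, and without any 1 combination library it was not tested, so its call rests on the values of the group where it is high. Without PLIN5 the count of the list is 5 of 12. CIDEA read 60.8, 51.0 and 56.1 against 18.5, 26.6 and 27.5 (log2 fold change 1.19), and its call was lost without combination replicate 1 or 3 or dicoumarol replicate 1 or 2 (adjusted p up to 0.137). PLIN5 and CIDEA were named after their values were seen.

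**Figure D3:**
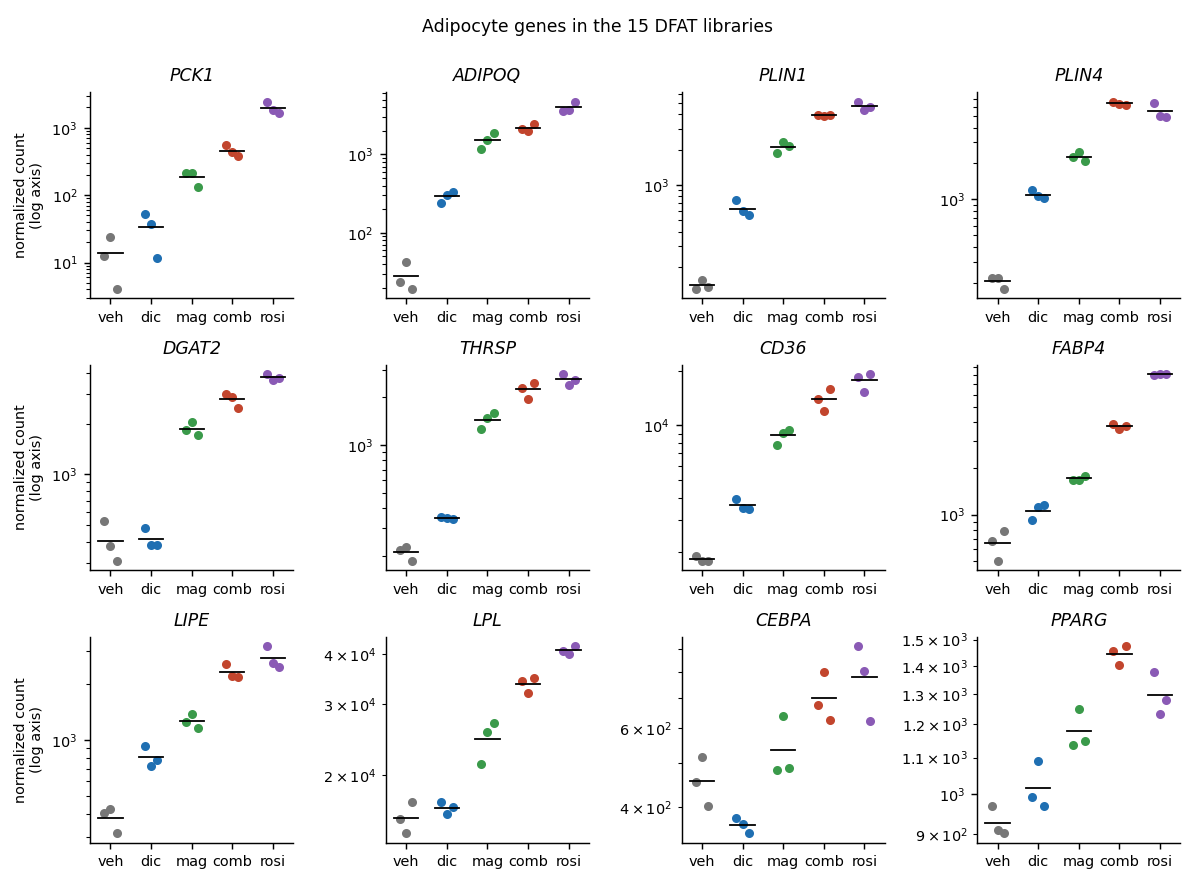
Normalized counts (log axis) of 12 adipocyte genes in the 15 DFAT libraries; points are libraries in the order of their replicate numbers and bars are group means. In each panel the 3 combination libraries (red) lie above the 3 dicoumarol libraries (blue), from 15.1-fold in PCK1 to 1.42-fold in PPARG by the fitted fold change.

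In fatty acid uptake and binding 7 of 15 tested genes were higher and none lower (median log2 fold change 0.33). CD36, the fatty acid translocase of the cell surface, rose from 3931, 3513 and 3466 with dicoumarol to 13993, 12045 and 15809 in the combination (log2 fold change 1.93 ± 0.10 (SE), adjusted p = 2.07e-09). FABP3 and FABP4 carry fatty acids inside the cell. FABP3 stood at 9956, 8401 and 10312 against 2496, 2198 and 2012 (log2 fold change 2.10 ± 0.12 (SE), adjusted p = 7.02e-09), and FABP4 at 3871, 3610.4 and 3726 against 921, 1114 and 1154 (log2 fold change 1.82 ± 0.12 (SE), adjusted p = 2.14e-08). The lowest combination library exceeded the highest dicoumarol library by a wide margin in both. LPL, the lipase that frees fatty acids from lipoproteins, was abundant in both groups, at 34187, 31990.3 and 34945 against 17152, 15932 and 16627 (2.03-fold, log2 fold change 1.02 ± 0.082 (SE), adjusted p = 5.84e-07). FABP5 (log2 fold change 0.74) and ACSL1, which links fatty acids to coenzyme A (0.64), also rose, and both were named after their values were seen. VLDLR, a lipoprotein receptor, was called at 0.31, but not without combination replicate 1 or 3 or any 1 dicoumarol library (adjusted p up to 0.162).

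Triglyceride synthesis had 3 higher genes of 14 tested and none lower. DGAT2, which adds the third fatty acid, stood at 2992, 2867 and 2464 in the combination and 481, 385 and 384 with dicoumarol (6.66-fold, log2 fold change 2.73 ± 0.14 (SE), adjusted p = 2.20e-09). The dicoumarol libraries were close to vehicle, which read 528, 380.1 and 308. GPAT4, an enzyme of the first acylation, read 4206, 4319 and 4112 against 3271, 3327 and 3454 (log2 fold change 0.33 ± 0.062 (SE), adjusted p = 0.00611), a small rise with no overlap that was not called with limma-voom on the column totals (adjusted p = 0.132). GK, glycerol kinase, was called at 0.40, but not without dicoumarol replicate 2 or 3 or any 1 combination library (adjusted p up to 0.202). The other 11 genes were not called, the median of the list was 0.00, and limma-voom on the column totals left 1 call. PCK1 makes the glycerol backbone of stored triglyceride from pyruvate in fat cells (glyceroneogenesis). It had the largest rise of the genes named by the rule: 562, 432 and 377 against 52.6, 37.7 and 11.8 (15.1-fold, log2 fold change 3.92 ± 0.49 (SE), adjusted p = 9.18e-05). The dicoumarol libraries were widely spread, yet their highest value lay far below the lowest combination library. It was the only call among 14 tested genes of glyceroneogenesis and pyruvate use, and LDHA, lactate dehydrogenase, was among those not called (0.21, adjusted p = 0.307). Under quantile normalization or limma-voom on the column totals 1 gene of the list was lower.

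For the release of stored fat, 5 of 10 tested lipolysis genes were higher and none lower, with a median of 0.41. LIPE, hormone-sensitive lipase, stood at 2566, 2218 and 2195 against 922, 719 and 778 (log2 fold change 1.53 ± 0.12 (SE), adjusted p = 6.11e-07). AQP3, a channel for water and glycerol, stood at 2390.3, 1974 and 2036 against 495, 442 and 391 (log2 fold change 2.27 ± 0.13 (SE), adjusted p = 5.19e-09). In neither gene did the groups come near each other. The list also holds restraints on lipolysis. PDE3B, the phosphodiesterase through which insulin lowers cyclic AMP in fat cells, stood at 134, 153 and 160.5 against 76.0, 81.4 and 70.8 (log2 fold change 0.96 ± 0.15 (SE), adjusted p = 0.000885). ADORA1, an adenosine receptor that dampens lipolysis, stood at 272, 242 and 279 against 128, 131 and 138 (log2 fold change 0.99 ± 0.14 (SE), adjusted p = 0.000374). ABHD5, the activator of the first triglyceride lipase, named after its values were seen, had a log2 fold change of 0.31 (adjusted p = 0.0126), and lost its call without combination replicate 1 or dicoumarol replicate 1 or 3 (adjusted p up to 0.0633). That lipase itself, PNPLA2, read 6628, 6716 and 5452 against 6012, 5555 and 5594, with overlapping groups (log2 fold change 0.13 ± 0.12 (SE), adjusted p = 0.718).

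In de novo lipogenesis, the making of fatty acids from other fuels, 4 of 15 tested genes were higher, none was lower, and the median was −0.03. THRSP, a small nuclear protein tied to lipogenic gene activity, stood at 2303, 1952 and 2479 against 352, 346 and 339.8 (6.45-fold, log2 fold change 2.69 ± 0.11 (SE), adjusted p = 5.40e-11), and its dicoumarol libraries were nearly equal. ELOVL6 and SCD, which modify finished fatty acids, also rose. ELOVL6, an elongase, read 9116, 8274 and 9861 against 5337, 5017 and 5193 (log2 fold change 0.81 ± 0.069 (SE), adjusted p = 1.28e-06). SCD, the desaturase that makes monounsaturated fatty acids, read 152953, 132479 and 140809 against 98798, 86730.3 and 90292 (log2 fold change 0.63 ± 0.087 (SE), adjusted p = 0.000294). MLXIPL, the carbohydrate-responsive factor ChREBP, read 275, 251 and 251 against 162, 102 and 125 (log2 fold change 1.02 ± 0.20 (SE), adjusted p = 0.00908), and lost its call without dicoumarol replicate 2 (adjusted p = 0.0644). FASN, the fatty acid synthase, was not called: 51791, 41928 and 31812 against 68379.6, 53577 and 53579.9 (log2 fold change −0.50 ± 0.20 (SE), adjusted p = 0.27). Its combination libraries all lay below its dicoumarol libraries.

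Secreted factors of fat cells included 5 higher genes among 11 tested adipokines and their receptors, none lower, and a median of 0.46. ADIPOQ encodes adiponectin, a hormone made by fat cells. It stood at 2091, 1997 and 2463 against 237, 308 and 335 (7.47-fold, log2 fold change 2.90 ± 0.22 (SE), adjusted p = 3.19e-07), while vehicle read 23.7, 42.0 and 19.4. ADIPOR2, an adiponectin receptor, had a log2 fold change of 0.46 (adjusted p = 0.000878), not called with limma-voom on the column totals (adjusted p = 0.0543). RBP4, the carrier of retinol in blood, was low but separate, at 40.2, 39.6 and 54.8 against 9.75, 18.8 and 13.8 (log2 fold change 1.63 ± 0.31 (SE), adjusted p = 0.00611). SFRP5, a secreted Wnt antagonist also named after its values were seen, was called at 0.49, but not without combination replicate 1 or 2 or any 1 dicoumarol library (adjusted p up to 0.0979). ANGPTL4, an inhibitor of LPL, was called at 0.67, but not without combination replicate 1 or 2 or dicoumarol replicate 1 or 3 (adjusted p up to 0.110). The list had 3 calls without combination replicate 1 or 2 or dicoumarol replicate 1 or 3, and 2 with limma-voom on the column totals. LEP, leptin, read 27.5, 32.3 and 35.7 against 9.75, 16.3 and 17.7. These values did not overlap but did not pass the test (log2 fold change 1.11 ± 0.38 (SE), adjusted p = 0.189).

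Among 22 tested adipogenic transcription factors, 2 were higher and 1 lower, and the median was −0.06. PPARG, the master receptor of fat cell formation, stood at 1454, 1403 and 1474 against 992, 1091 and 967 (1.42-fold, log2 fold change 0.51 ± 0.069 (SE), adjusted p = 0.000233). CEBPA, its partner factor, stood at 674, 798 and 627 against 378, 366 and 349 (1.91-fold, log2 fold change 0.93 ± 0.14 (SE), adjusted p = 0.000757). In neither gene did the groups overlap. CEBPD, a factor of the early phase, was called at −0.25, but not without combination replicate 1 or 3 or any 1 dicoumarol library (adjusted p up to 0.210). In the list on caveolae and the insulin response 3 of 17 genes were higher. SLC2A4, the insulin-responsive glucose transporter GLUT4, read 67.7, 59.3 and 68.8 against 11.7, 9.42 and 5.90 (log2 fold change 2.77 ± 0.33 (SE), adjusted p = 6.14e-05). SLC2A1, the basal glucose transporter GLUT1, had a log2 fold change of 0.29 (adjusted p = 0.00372), not called with limma-voom on the column totals (adjusted p = 0.107).

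No call was made in several lists of central metabolism. None of 22 fatty acid oxidation genes, 20 citric acid cycle genes, 19 genes of branched-chain amino acid breakdown, 23 cholesterol synthesis genes or 18 endoplasmic reticulum chaperones was called, and their medians lay between −0.03 and 0.09. Over all genes tested 2.35% were called, and at that share lists this short would hold few calls or none. The 13 genes of the mitochondrial genome were all above 0 with none called (median 0.29), where 6937 of all 14819 genes tested lay above 0. After quantile normalization 3 of the 13 were below 0. The median of the 13 by library was 0.18, 0.01 and 0.75 in the combination and 0.02, 0.01 and −0.05 with dicoumarol, so combination replicate 3 stood apart. Single calls were made in the peroxisome list (PEX11A, which helps peroxisomes divide, 0.55) and among LXR targets (APOE, a lipid-carrying apolipoprotein, 1.05, adjusted p = 0.00629). The PEX11A call was lost without combination replicate 1 or dicoumarol replicate 1 (adjusted p up to 0.0532). ABCA1, a cholesterol exporter and LXR target, was not called (−0.17, adjusted p = 0.528).

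**Figure D4:**
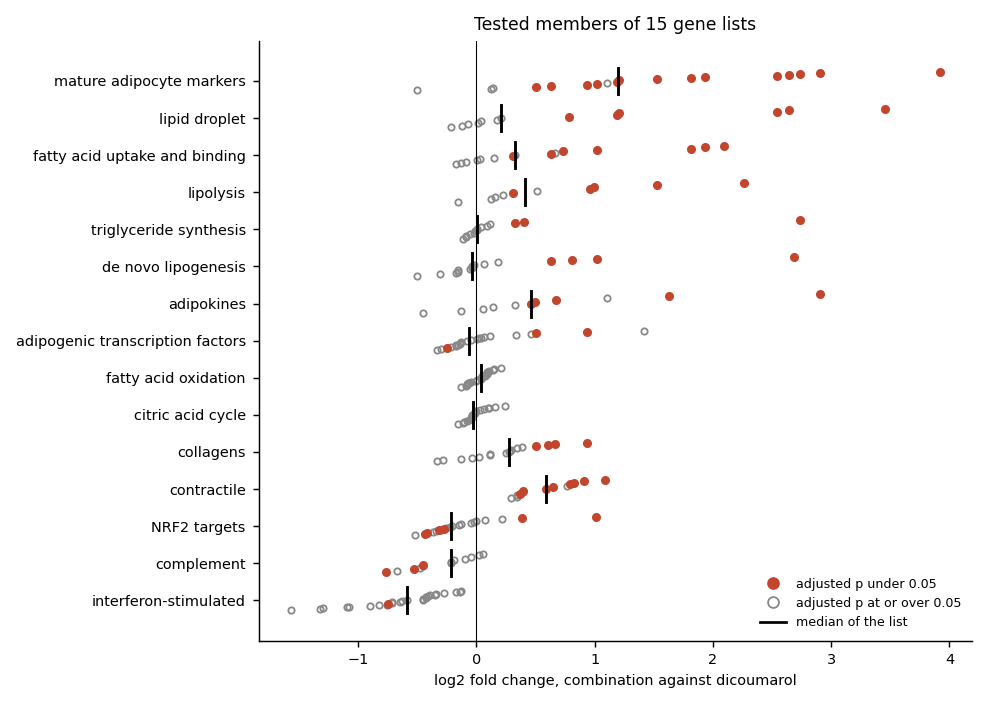
Log2 fold change, combination against dicoumarol, of each tested member of 15 gene lists; filled points passed an adjusted p of 0.05, open points did not, and bars mark list medians. The mature adipocyte markers have the highest median (1.20) and the interferon-stimulated genes the lowest (−0.58), with 1 of the latter called.

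Several of the largest rises lay outside these pathways. RBP5, an intracellular retinol-binding protein, stood at 329, 223 and 233 against 32.2, 30.0 and 26.6 (8.48-fold, log2 fold change 3.08 ± 0.17 (SE), adjusted p = 4.35e-09). SGK2, a kinase related to the glucocorticoid-induced kinase SGK1, stood at 568, 391 and 535 against 89.7, 69.4 and 51.1 (log2 fold change 2.83 ± 0.27 (SE), adjusted p = 4.59e-06). In both genes every combination library was far above every dicoumarol library. CHST13, a sulfotransferase that modifies chondroitin, read 208, 222 and 228 against 42.9, 32.5 and 26.6 (log2 fold change 2.68 ± 0.16 (SE), adjusted p = 1.29e-08). SLC25A34, a member of the mitochondrial carrier family, read 203, 187 and 195 against 58.5, 47.1 and 38.3 (log2 fold change 2.02 ± 0.21 (SE), adjusted p = 1.29e-05). SLC36A2, a transporter of small amino acids, read 367, 298 and 321 against 80.9, 82.3 and 81.8 (log2 fold change 1.99 ± 0.17 (SE), adjusted p = 1.19e-06). The dicoumarol libraries of SLC36A2 were nearly equal. MGST1, a membrane glutathione transferase, was not among the 14 largest rises. It read 2327, 2081 and 2317 against 1197, 1049 and 1094 (log2 fold change 1.01 ± 0.10 (SE), adjusted p = 9.01e-06).

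Among contractile genes of the smooth muscle type, all 13 tested members had values above 0, also under quantile normalization and limma-voom on the column totals. Of these, 8 were called higher and none lower, and the median was 0.59. Over all genes tested, 6937 of 14819 lay above 0 and 2.00% were called higher. MYH11, the smooth muscle myosin heavy chain, stood at 1743, 1909 and 2412 against 847, 1029 and 957 (2.13-fold, log2 fold change 1.09 ± 0.14 (SE), adjusted p = 0.000128). SMTN, smoothelin, stood at 6876, 6422 and 6691 against 3625, 3558 and 3463 (log2 fold change 0.91 ± 0.078 (SE), adjusted p = 1.30e-06), with little spread in either group. ACTG2, the enteric smooth muscle actin, read 19803, 22786 and 23283 against 11168, 13564 and 13263 (log2 fold change 0.80 ± 0.16 (SE), adjusted p = 0.00891), and lost its call without dicoumarol replicate 1 (adjusted p = 0.0689). ACTA2, the actin of smooth muscle and myofibroblasts, read 100898, 113250.0 and 114025 against 63639.5, 70832 and 75489.5 (log2 fold change 0.65 ± 0.14 (SE), adjusted p = 0.0142). Its call was lost without combination replicate 2 or 3 or dicoumarol replicate 1 or 2 (adjusted p up to 0.0984). The count of 8 fell to 4 without combination replicate 2, 3 without combination replicate 3, 2 without dicoumarol replicate 1 and 5 without dicoumarol replicate 2, was 5 with limma-voom on the column totals, and 2 with no minimum mean or no variance trend. CALD1, caldesmon, was not called (0.34, adjusted p = 0.0999). CSPG4, the proteoglycan NG2 of pericytes and mesenchymal progenitors, read 11150.3, 10756 and 11592 against 7767, 7415 and 7673 (log2 fold change 0.55 ± 0.073 (SE), adjusted p = 0.000179). NOTCH3, a receptor of mural cells, had 0.49 (adjusted p = 0.00891), and lost its call without dicoumarol replicate 3 (adjusted p = 0.0522).

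In the extracellular matrix 4 of 17 tested collagens were higher and none lower (median 0.28, and 0.03 after quantile normalization). A count of 1 lower was made under quantile normalization, with limma-voom on the column totals, or without combination replicate 3. COL11A1, a fibril-nucleating collagen, stood at 25127, 24373 and 35064 against 13771, 14674 and 15299 (log2 fold change 0.93 ± 0.12 (SE), adjusted p = 0.000128). COL15A1, of the basement membrane zone, stood at 95325, 97256 and 115744 against 63468, 68863 and 70135 (log2 fold change 0.60 ± 0.085 (SE), adjusted p = 0.000335). COL12A1 and COL8A1 had log2 fold changes of 0.66 (adjusted p = 0.00227) and 0.50 (adjusted p = 0.000878). Combination replicate 3 was the highest library in all 4. COL1A1, a chain of type I collagen, read 1860210.0, 1729010.0 and 2020960.0 against 1621690.0, 1569430.0 and 1502530.0 and was not called (log2 fold change 0.26 ± 0.13 (SE), adjusted p = 0.465). Of 23 other matrix genes 2 were higher and 2 lower, with none higher without combination replicate 3 or dicoumarol replicate 1 or 3. The falls were the small leucine-rich proteoglycans DCN, decorin, at 4431, 4285 and 4609 against 6962, 6422 and 6184 (log2 fold change −0.55 ± 0.065 (SE), adjusted p = 4.60e-05), and LUM, lumican, at 33759, 33102 and 36586 against 47751, 46733 and 44961 (log2 fold change −0.43 ± 0.069 (SE), adjusted p = 0.00139). The rises, in THBS1 (0.68) and PRELP (0.52), were less firm. THBS1 lost its call without combination replicate 1 or 3 or any 1 dicoumarol library (adjusted p up to 0.242), and PRELP without combination replicate 2 or 3 or dicoumarol replicate 1 or 3 (adjusted p up to 0.224). MMP19 (0.34) was the only call among 11 metalloproteinases and their inhibitors, and was lost without combination replicate 2 or dicoumarol replicate 3 (adjusted p up to 0.0543). Of 17 genes of the Wnt and adipogenesis-brake list, DKK2 (0.72) and WNT5B (0.39) were higher. Without dicoumarol replicate 1 neither was called (adjusted p 0.0688 and 0.0555), nor was DKK2 without combination replicate 3 (0.0597).

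Targets of the oxidative stress factor NRF2 moved in both directions. Of 20 tested targets 4 were lower and 2 higher, 16 lay below 0, and the median was −0.21. Over all genes tested, 0.344% were called lower and 2.00% higher, and 7882 of 14819 lay below 0. NQO1, the quinone reductase that dicoumarol inhibits, stood at 1265, 1352 and 1261 against 1673, 1774 and 1744 (log2 fold change −0.42 ± 0.079 (SE), adjusted p = 0.00618), and vehicle read 2229, 2305 and 2328. SRXN1, sulfiredoxin, stood at 5110.2, 5421 and 4637 against 6774, 6600.5 and 7036 (log2 fold change −0.43 ± 0.076 (SE), adjusted p = 0.00367). Neither pair of groups overlapped. GCLC, of glutathione synthesis, was called at −0.32, but not without combination replicate 2 or dicoumarol replicate 1 or 3 (adjusted p up to 0.0591). PGD, of the pentose phosphate pathway and named after its values were seen, was called at −0.28, but not without combination replicate 2 or 3 or any 1 dicoumarol library (adjusted p up to 0.214). The list had 2 lower calls without combination replicate 2, dicoumarol replicate 1 or dicoumarol replicate 3, and 7 under quantile normalization or limma-voom on the column totals. The 2 higher members were MGST1, above, and EPHX1, an epoxide hydrolase (0.39), whose call was lost without any 1 of the 6 libraries (adjusted p up to 0.158). FTL, the ferritin light chain, was not called (−0.37, adjusted p = 0.0951).

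Several of the largest falls were in genes of innate immunity. ZBP1, a sensor of nucleic acids, read 315, 473 and 366 in the combination and 1059.8, 570.4 and 1157 with dicoumarol (log2 fold change −1.23 ± 0.25 (SE), adjusted p = 0.0126). DHX58, a regulator of the RNA sensor RIG-I, read 237, 378 and 255 against 642, 394 and 592 (log2 fold change −0.90 ± 0.21 (SE), adjusted p = 0.0309). In both the combination replicate 2 was the highest of its group and the dicoumarol replicate 2 the lowest. Of 27 tested interferon-stimulated genes 1 was called, IFI6, at 1094, 1297 and 836 against 1940.2, 1590.4 and 1832 (log2 fold change −0.75 ± 0.18 (SE), adjusted p = 0.0295). All 3 genes lost their calls without combination replicate 1 or 3 or dicoumarol replicate 1 or 3, with adjusted p up to 0.0893 for ZBP1, 0.194 for DHX58 and 0.184 for IFI6. None of the 3 was called with no minimum mean or no variance trend. All 27 list members lay below 0 (median −0.58), where 7882 of all 14819 genes tested lay below 0. Without combination replicate 2 the list held 8 lower calls and without dicoumarol replicate 2 it held 5, while it held none without combination replicate 1 or 3 or dicoumarol replicate 1 or 3. The list's median was −0.37, 0.13 and −0.44 in the combination libraries and 0.42, −0.01 and 0.63 in the dicoumarol libraries, so the groups overlapped at their second replicates.

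Complement genes had 3 lower calls of 13 and none higher (median −0.22). C3, the central complement protein, read 222, 149 and 166 against 336, 297 and 270.4 (log2 fold change −0.77 ± 0.17 (SE), adjusted p = 0.0234). C2 and SERPING1, the C1 inhibitor, had log2 fold changes of −0.45 (adjusted p = 0.0238) and −0.53 (adjusted p = 0.027). No complement call was left without combination replicate 2 or 3 or dicoumarol replicate 1 or 2, where C3 had adjusted p-values of 0.0786 to 0.145, and C2 was not called without any 1 library. CLU, clusterin, was not called (−0.22, adjusted p = 0.453). Among 16 inflammatory genes TNFAIP6, a hyaluronan-binding protein, was higher at 1276, 1248 and 1530.1 against 729, 774 and 732 (log2 fold change 0.85 ± 0.10 (SE), adjusted p = 4.60e-05). IL1R1, the interleukin 1 receptor, was lower at 28059, 29108 and 29439.6 against 35405, 35276 and 34126 (log2 fold change −0.28 ± 0.052 (SE), adjusted p = 0.00628). The chemokine CCL5 was called at −0.50, but not without combination replicate 1 or 3 or any 1 dicoumarol library (adjusted p up to 0.111). VCAM1, an adhesion molecule, was not called (0.28, adjusted p = 0.215).

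Other large falls were scattered over functions. GATM, the first enzyme of creatine synthesis, stood at 159.9, 173 and 148 against 277, 271 and 253 (log2 fold change −0.73 ± 0.11 (SE), adjusted p = 0.000467). RHCG, an ammonia channel, stood at 486, 519.5 and 399 against 762, 742 and 757 (log2 fold change −0.70 ± 0.13 (SE), adjusted p = 0.00618). The groups did not overlap in either gene. CTSS, a lysosomal protease, had −0.68 (adjusted p = 0.0184), and lost its call without combination replicate 1 or 3 or dicoumarol replicate 1 or 2 (adjusted p up to 0.0981). CPEB1, an RNA-binding protein, and PAMR1, a secreted protein with a peptidase domain, had log2 fold changes of −0.63 (adjusted p = 0.0476) and −0.56 (adjusted p = 0.0439). Neither was called without any 1 of the 6 libraries (adjusted p up to 0.258 and 0.185). Other lists had single calls: INHBA (0.63) among 19 cAMP-responsive genes, CCND1 (0.37) among 20 cell cycle genes, VLDLR among 23 genes of the integrated stress response, EPHX1 among 9 xenobiotic genes, and ANGPTL4 up and CEBPD down among 14 glucocorticoid targets. With 2.35% called over all genes tested, single calls in lists this short say little about the lists. INHBA lost its call without combination replicate 2 or 3 or any 1 dicoumarol library (adjusted p up to 0.241), and CCND1 without any 1 combination library or dicoumarol replicate 1 or 2 (up to 0.217). ATF4, the factor at the centre of the integrated stress response, was not called (−0.19, adjusted p = 0.163).

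Whether the same genes move when dicoumarol is absent was asked of magnolol alone against vehicle, whose libraries do not enter the fold changes above. A single model over all DFAT groups set the spread for both comparisons, so their calls are not independent. In magnolol against vehicle 626 genes were called (4.22% of those tested), 438 higher (2.96%) and 188 lower (1.27%). With limma-voom on the column totals 311 were higher and 2295 lower, and the median of all genes was −0.15. Without vehicle replicate 1 it gave 400 calls and without magnolol replicate 3 it gave 413. Of the 297 genes higher in the combination, 188 (63.3%) were called higher with magnolol alone and none lower, and they made up 42.9% of its 438 rises. Of the 51 genes lower, 27 (52.9%) were called lower with magnolol alone and none higher, 14.4% of its 188 falls. By sign, 289 of the 297 and 46 of the 51 moved the same way, where 48.3% of all genes tested lay above 0 with magnolol alone. The median of the 297 was 0.53 with magnolol alone beside 0.55 in the combination. Across genes, which are not independent replicates, the 2 sets of fold changes had a Pearson r of 0.537 over all 14819 genes tested. Among single genes, PCK1 had a log2 fold change of 3.92 with dicoumarol present and 3.91 without it, THRSP 2.69 and 2.78, FABP3 2.10 and 2.18, and SMTN 0.91 and 0.97. In the interferon-stimulated list 23 of 27 genes lay above 0 with magnolol alone (median 0.36), none called, where all 27 lay below 0 in the combination against dicoumarol. For ZBP1 the fold changes were −1.23 and 0.26, and the difference between them did not pass its test (adjusted p = 0.362).

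**Figure D5:**
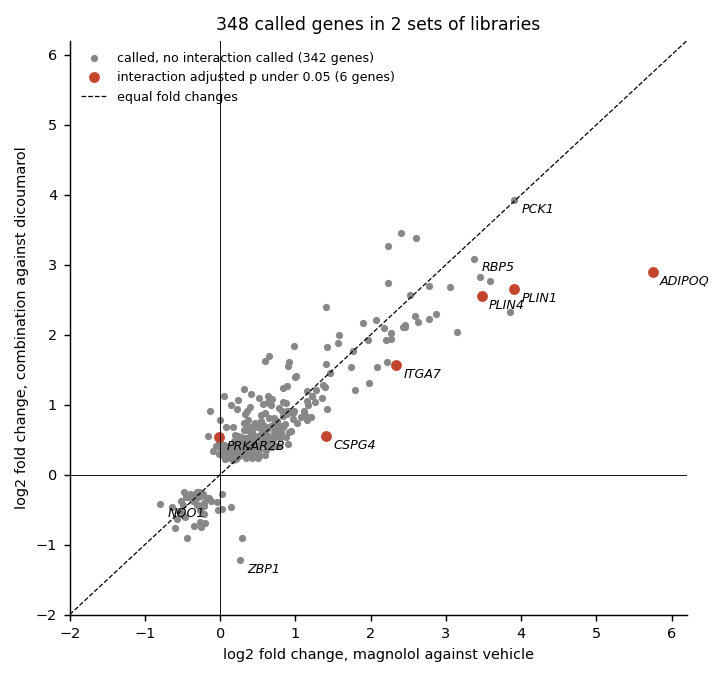
Log2 fold changes of the 348 genes called in combination against dicoumarol (vertical axis) over the same genes' log2 fold changes in magnolol against vehicle (horizontal axis); each point is 1 gene and no library enters both axes. Of the 297 genes higher, 289 lie to the right of 0, and 6 of the 348, in red, passed the test of a difference, among them ADIPOQ at 2.90 and 5.75.

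The difference between the effect of magnolol with dicoumarol and its effect without was tested as an interaction over the 4 groups. It passed for 12 genes (0.0810% of those tested), 6 in each direction (0.0405% each), and 582 had an unadjusted p under 0.05. ADIPOQ had the largest: vehicle read 23.7, 42.0 and 19.4, dicoumarol 237, 308 and 335, magnolol 1176, 1521 and 1868 and the combination 2091, 1997 and 2463. The rise that magnolol brought was thus 5.75 on the log2 scale without dicoumarol and 2.90 with it (difference −2.85, adjusted p = 0.000897), and the combination still held the highest values of the 4 groups. In normalized counts the larger rise was with dicoumarol, from a mean of 293.2 to 2183.5, against 28.35 to 1521.6 without it. PLIN1 had the same order of groups, with vehicle at 130.2, 155 and 135 and magnolol at 1872, 2332 and 2144 (difference −1.26, adjusted p = 0.0011). In the opposite direction stood NR4A1, an immediate-early nuclear receptor induced by cyclic AMP, and PDE4D, a phosphodiesterase that degrades cyclic AMP. PDE4D read 1299, 1171 and 1308 in vehicle, 661, 629 and 659.7 with magnolol, 503, 536 and 525 with dicoumarol and 465, 549.7 and 478 in the combination. The vehicle libraries were the highest and the other 3 groups all lay far below them. Adding magnolol to dicoumarol gave a log2 fold change of −0.07 (adjusted p = 0.778), and the difference was 0.88 (adjusted p = 0.00179). NR4A1 read 444, 321 and 423 in vehicle and 232, 201 and 236 with magnolol. It read 189, 156 and 164 with dicoumarol and 223, 238 and 191 in the combination (difference 1.17, adjusted p = 0.0198). PDE4B, a second phosphodiesterase of this family, had −1.23 (adjusted p = 0.00387) with magnolol alone and −0.39 (adjusted p = 0.538) on top of dicoumarol, and its difference did not pass (0.84, adjusted p = 1). CAT, catalase, was lower with magnolol alone (−0.41, adjusted p = 0.00125) and not called on top of dicoumarol (0.15, adjusted p = 0.354), with a difference of 0.56 (adjusted p = 0.0244). The interaction shares libraries with both comparisons, and leaving out 1 library gave 5 to 13 calls, the fewest without combination replicate 2 or dicoumarol replicate 2. Without dicoumarol replicate 1 or vehicle replicate 1 it gave 6, without dicoumarol or magnolol replicate 3 it gave 7.

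Rosiglitazone against vehicle, which again shares the fitted spread but no group with the comparison, called 1604 genes (10.8%), 860 higher (5.80%) and 744 lower (5.02%). Of the 297 genes higher in the combination, 191 (64.3%) were called higher with rosiglitazone and 16 lower, and of the 51 lower, 25 were called lower and 2 higher. These 191 made up 22.2% of the 860 rises under rosiglitazone. Against vehicle, rosiglitazone gave log2 fold changes of 7.33 in PCK1, 7.15 in ADIPOQ and 3.66 in FABP4. Of the 4 collagens higher in the combination, COL15A1 was also higher with rosiglitazone, at 0.75 (adjusted p = 7.68e-06). The other 3 were not called, with 0.28 (adjusted p = 0.162) in COL11A1, 0.15 (adjusted p = 0.501) in COL12A1 and 0.07 (adjusted p = 0.708) in COL8A1. Of the genes lower in the combination, 3 had these values with rosiglitazone: C3 −1.42 (adjusted p = 2.00e-05), DCN −1.05 (adjusted p = 3.74e-09) and LUM −1.03 (adjusted p = 1.18e-08). Not called with rosiglitazone were IL1R1 (−0.10, adjusted p = 0.2775), GCLC (−0.07, adjusted p = 0.612) and PGD (−0.07, adjusted p = 0.621). These genes are examples from the 51.

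In mouse 3T3-L1 cells the same pair of groups gave 4 calls (0.0254% of 15723 genes tested), all higher, with 1273 genes under an unadjusted p of 0.05. Leaving out 1 library gave 0 to 46 calls, 46 without combination replicate 2 and none without combination replicate 1 or 3 or dicoumarol replicate 2 or 3. Same-numbered 3T3-L1 libraries deviated together, but a pairing by replicate number is read from these values and not from a label. With the replicate as a block 569 genes were called, 392 of them higher. With the block, among the fat genes named above, PLIN1 (log2 fold change 1.80, adjusted p = 2.30e-05), ADIPOQ (1.72, 1.60e-05), FABP4 (1.69, 8.70e-07), CIDEC (2.37, 0.000114), LIPE (1.18, 1.97e-05) and CEBPA (1.02, 4.31e-05) were higher in mouse cells too. So were DGAT2 (1.44, 0.00022), CD36 (1.84, 0.000153), THRSP (adjusted p = 0.0158), LPL (0.61, 0.00201), PPARG (0.46, 0.000753) and PLIN4 (0.43, 0.0238). None of these 12 was called without the block. PCK1 (adjusted p = 0.11) and PLIN2 (0.17, 0.225) were not called with it. TINAGL1 (−0.66, 0.000753) and PRSS23 (−0.52, 0.00924; named after its values were seen) were called lower with the block, while both were higher in DFAT. A test of the difference between the cell systems, over 9369 genes that both tables name once, passed for 12 genes (0.128%), all with the larger change in DFAT (5 larger and 2 smaller with limma-voom on the column totals). PLIN4 had 2.54 in DFAT and 0.43 in 3T3-L1 (difference 2.11, adjusted p = 7.41e-06). TINAGL1, a matricellular protein, had 0.73 and −0.66 (difference 1.39, adjusted p = 0.00105). SMTN, of the contractile list, had 0.91 and −0.30 (difference 1.21, adjusted p = 0.0114), and COL11A1 had 0.93 and −0.09 (difference 1.02, adjusted p = 0.0312). Without 3T3-L1 combination replicate 1 or dicoumarol replicate 2 it passed for 4 genes, and without 3T3-L1 combination replicate 3 for 5. With the replicate block 467 genes passed, 250 of them larger in DFAT. The 2 tables were normalized separately and the media differ, so species, medium and cell type cannot be told apart here.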

How the data were processed

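RNA was measured by poly(A) RNA sequencing with a strand-marking kit, per the labels' protocols. The deposited tables hold a signal, read counts divided by per-library size factors by the authors, and STAR and DESeq2 are named in the submitters' processing notes. The pig genome build is not given in the sources used here. Whole reads could not be recovered: 89.9% to 90.9% of low DFAT values were whole within 0.02, so depths are estimates. The DFAT data list 34307 genes, of which 9113 are at 0 throughout and 16875 have no symbol.

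Values were analysed as log2(value + 1), for 14819 genes whose mean reached 10 across the 15 DFAT libraries, in 1 limma 3.58.1 model (R 4.3.3) over all 5 groups, with a variance trend and Benjamini-Hochberg adjusted p under 0.05 as the call. Fold changes on this scale understate changes of low genes, and differences between groups have ± SE. The interaction was tested as a contrast of this model. The difference between the cell systems was taken between separate fits of each table. It was divided by the root of the summed squared SEs, and p came from a t distribution with the smaller degrees of freedom. The method was tried on simulated counts for the DFAT comparison and the interaction only, with no replicate structure drawn. Same-numbered 3T3-L1 libraries of the comparison deviated together (r of their deviations 0.286, 0.358 and 0.362), though no label says that the replicate numbers pair them. Tables were handled with Python 3.11.15 and pandas 2.3.3, and figures drawn with matplotlib 3.10.9.

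The text names the 14 largest rises and 10 largest falls with a symbol and a mean of at least 100, up to 4 called members of each list and its member not called with the highest mean, a panel of fat and signalling genes, and the largest differences between effects; others are said to be named after their values were seen. The comparison, lists and rule were chosen with earlier results of these data known. Alternatives were other pseudocounts, minimum means, scalings, variance models, the replicate block, the compared groups alone and leaving out each library. Results for some genes that the rule would name are not reported here.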

Additional observations from a re-analysis of the deposited data

Results flagged for a closer look

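Adding magnolol had a different effect with dicoumarol than without it, by the interaction test in limma (adjusted p under 0.05), in 12 DFAT genes. The difference of the log2 fold changes, with dicoumarol minus without, was −2.85 in ADIPOQ, −1.26 in PLIN1, −0.93 in PLIN4, −0.85 in CSPG4, −0.77 in ITGA7 and −0.72 in CRABP2. It was 0.54 in PRKAR2B, 0.56 in CAT, 0.63 in EDNRA, 0.65 in IGF1, 0.88 in PDE4D and 1.17 in NR4A1.

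The combination against dicoumarol differed between DFAT and 3T3-L1 cells, by a test of that difference, in another 12 gene results. The DFAT log2 fold change minus that in 3T3-L1 was 2.11 in PLIN4, 1.39 in TINAGL1, 1.22 in PRSS23, 1.21 in SMTN, 1.03 in LOXL4 and 1.02 in COL11A1. It was 1.01 in TPM1, 0.99 in TGFB3, 0.91 in CRYAB, 0.86 in FLNC, 0.76 in MRAS and 0.62 in PLIN2. PLIN4 is in both sets.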

How the results depend on the processing

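The combination against dicoumarol gave 348 calls, and 175 to 268 on leaving out 1 library. All 348 genes kept their direction under each alternative in which they were tested. No paired reading was used for DFAT, since across genes same-numbered combination and dicoumarol libraries deviated together little (r 0.0927, −0.0219 and 0.0810). A pairing is not excluded by this, since single genes shared an order of replicates. EGR1 read 14140.9, 12057.6 and 5984 in the combination replicates 1 to 3 and 17093.5, 12890.1 and 6190 with dicoumarol. The vehicle, magnolol and rosiglitazone libraries had the same order in EGR1. In PDE4B replicate 2 was highest and replicate 3 lowest in every DFAT group. With the replicate block the count was 893, including all 348. The block gave 1360 calls for magnolol against vehicle, 34 for the interaction, 569 for 3T3-L1 and 467 for the difference between cell systems. On leaving out 1 library these 4 results gave 400 to 577, 5 to 13, 0 to 46 and 4 to 17 calls, and rosiglitazone against vehicle 1125 to 1848. With limma-voom on the column totals magnolol gave 2606 calls, the interaction 5 and the difference 7. With no minimum mean the interaction gave 7 and the difference 5, and with no variance trend 5 and 4, where 3T3-L1 gave 0. Fitting only the compared groups gave 931 calls for rosiglitazone and 0 for 3T3-L1, and quantile normalization gave 8 for 3T3-L1. For 3T3-L1 the limma fit with all groups had 1273 genes under an unadjusted p of 0.05. Of 121 named genes, 29 lost their call with no minimum mean, 25 with no variance trend and 21 with limma-voom on the column totals. The 121 include genes not called in the main fit, which had no call to lose. Limma-voom with the scaling kept, chosen after seeing the data, gave 357 calls, 339 of them among the 348. The planned count test was not run, since whole reads could not be recovered. Depth is known only as an estimate, so no counting interval is given.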
